A study of Homo sapiens with 47 samples.

Results

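HELLS and ANKRD17 are a pair of protein-coding genes described here through the places where RNA-binding proteins were crosslinked to their transcripts in Lenti-X 293T, a cell line derived from human embryonic kidney. They were chosen by their high numbers of clusters in the PTBP1 list from 1000 cells and in the RBFOX2 list, so those numbers are given below as a description and support nothing. A site counted for a gene when its midpoint lay in the RefSeq span of the gene on the strand of the gene. The pair held 5212 of the 2232378 sites in 17 deposited lists, of which 5206 lay in the 9 lists of PTBP1, RBFOX2 and SpyCatcher libraries and 6 in the 8 lists of Cas13 proteins. HELLS (gene ID 3070) spans 94545788 to 94613905 of chromosome 10 on the plus strand of hg38, or 68.1 kb. ANKRD17 (gene ID 26057) lies on the minus strand of chromosome 4 from 73073376 to 73258798, or 185.4 kb.

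The assay, uSpyCLIP-seq, crosslinks a tagged protein to RNA with ultraviolet light, trims the RNA with RNase I, captures the protein through the bond between SpyTag and SpyCatcher, and sequences the RNA that remains bound. Each protein was expressed from a stable Lenti-X 293T line, so the contacts are those of an introduced protein in 1 kind of cultured cell. PTBP1 was profiled from 10000000, 100000, 10000 and 1000 cells and RBFOX2 from 10000000 cells, with 2 libraries each. SpyCatcher versions 1.0 and 2.0 were used at 20 and 40 µg with 1 library each, and PTBP1 appears as the captured protein only in the names of those lists, not in the sample labels. dPspCas13b and dRfxCas13d, which are nucleases guided to RNA and made inactive for cutting, were profiled in crosslinked cells, alone or with a guide, among them EZH2g1 and EZH2g2, in 3 libraries per group. Uncrosslinked libraries of the Cas13 proteins alone and libraries of dRfxCas13d with gNT belong to the study too, and site lists of these groups were not analysed here.

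PTBP1 binds pyrimidine-rich RNA, often in introns, and is best known as a repressor of exons in non-neuronal cells. RBFOX2 binds the short element GCAUG and enhances or represses exons according to the side on which it binds. HELLS, also called LSH, is a chromatin remodeller of the SNF2 family that works with CDCA7 and is needed for normal DNA methylation. ANKRD17 is a large protein with ankyrin repeats and a KH domain, a fold that can bind RNA, and ANKHD1 is its paralog.

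The lists hold positions and strands with no score and no read count, so the depth behind any cluster is unknown. There is 1 list per group, so no spread between replicates can be given and no test was made. Intervals in parentheses are exact Clopper-Pearson 95% intervals for a share of clusters. They cover counting error only, and neighbouring clusters of a transcript are not independent.

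The reference used here reaches only the starts of the genes, where binding was nearly absent, and the sequence is printed to show what the single cluster there covers. It is the first 30 nt of HELLS, chr10:94545788-94545817 on the plus strand of GRCh38.p14, from RefSeq, with the 3 nt of the cluster in capitals.
HELLS start: gaaggagaagcgcgCTTttttccctggcgg
This cluster, at 94545802 to 94545804, lies in a short run of pyrimidines and was in the PTBP1 list from 10000000 cells alone. The RefSeq start windows of ANKRD17, of 300 nt each, held no cluster in the 9 lists.

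The PTBP1 lists held 526 clusters in HELLS from 10000000 cells, 431 from 100000, 409 from 10000 and 146 from 1000. It held 344 RBFOX2 clusters, and 47, 51, 63 and 76 clusters in the lists of SpyCatcher 1.0 at 20 and 40 µg and of SpyCatcher 2.0 at 20 and 40 µg. The number hardly moved between 100000 and 10000 cells, while the whole list went from 769524 to 248168 clusters. ANKRD17 held 885, 818, 585 and 118 PTBP1 clusters with falling input. It held 368 RBFOX2 clusters, and 58, 82, 95 and 104 in the SpyCatcher lists in the same order as above. ANKRD17 held more clusters than HELLS in 8 of these 9 lists, and HELLS held more at 1000 cells.

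Per kb of gene HELLS stood above ANKRD17 in every one of the 9 lists. HELLS held 7.72, 6.33, 6.0 and 2.14 PTBP1 clusters per kb with falling input and 5.05 RBFOX2 clusters per kb. ANKRD17 held 4.77, 4.41, 3.15 and 0.636 PTBP1 clusters per kb and 1.98 RBFOX2 clusters per kb. The shorter gene is thus the more densely marked, and its clusters covered 12.2% of its span at 10000000 cells against 6.08% for ANKRD17. Most single clusters were narrow, with a median width of 8 nt in HELLS at 10000000 cells and of 6 nt at 1000.

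Relative to the length of each list, both genes gained weight as the input fell. HELLS held 5.45 of every 10000 PTBP1 clusters from 10000000 cells, 5.60 from 100000, 16.5 from 10000 and 47.2 from 1000. ANKRD17 held 9.18, 10.6, 23.6 and 38.2 in the same order. In the RBFOX2 list the values were 29.3 for HELLS and 31.3 for ANKRD17. By number of clusters among protein-coding genes, HELLS stood at place 98, 142, 7 and 1 along the titration and ANKRD17 at place 16, 25, 2 and 3. In the RBFOX2 list HELLS stood at place 3 and ANKRD17 at place 2.

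**Figure D1:**
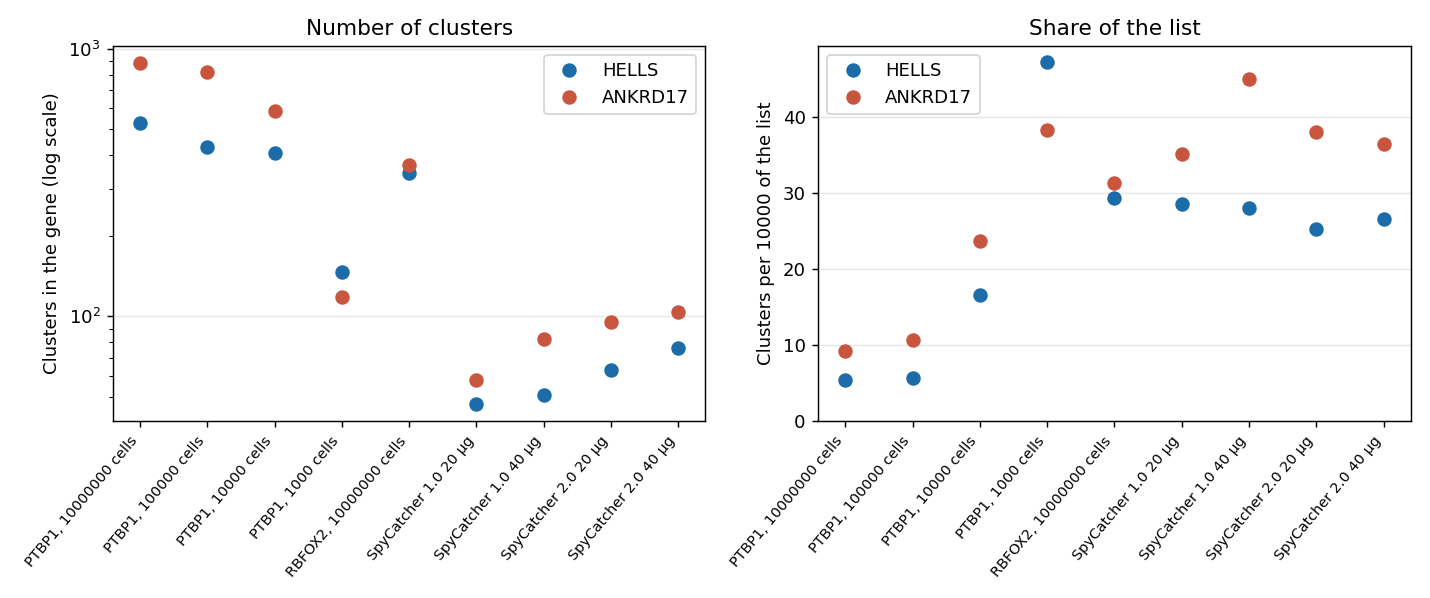
Left, number of clusters in HELLS and ANKRD17 (log axis); right, clusters per 10000 of the list (linear axis from 0); each point is 1 list. HELLS fell from 526 to 146 PTBP1 clusters between 10000000 and 1000 cells while its share rose from 5.45 to 47.2 per 10000.

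The selected numbers stand close to those of other genes. At 1000 cells SLIT2, which encodes a secreted guidance protein, held 140 clusters between the 146 of HELLS and the 118 of ANKRD17, and SRPK1, a kinase of SR proteins, followed with 108 and RBM26 with 106. Among protein-coding genes of the RBFOX2 list SLIT2 led with 469, and below ANKRD17 and HELLS came the actin regulator ENAH with 297 and MYCBP2 with 281. SLIT2 thus stood above ANKRD17 in both lists without being a member of the pair.

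The number of clusters at each lower input was set against that at 10000000 cells for 2610 genes with at least 100 clusters there, a ratio of counts that does not say whether the same places were found. In HELLS the ratio was 81.9% at 100000 cells, 77.8% at 10000 and 27.8% at 1000. For the whole list it was 79.8%, 25.7% and 3.21%, and for the median gene 80.6%, 22.9% and 1.73%. HELLS was an ordinary gene at 100000 cells, at place 1237, and stood at place 61 at 10000 cells and 14 at 1000. Of the 2610 genes, 6.44% had a ratio of at least 10% at 1000 cells, a contrast that the choice of the pair already used.

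In ANKRD17 the ratio was 92.4% at 100000 cells, 66.1% at 10000 and 13.3% at 1000, at places 728, 123 and 100. It was thus above that of HELLS at the first step down and below it at both later steps. The 95th percentile of all these genes at 1000 cells was 11.6%. The RBFOX2 list held 65.4% as many clusters as the 10000000-cell PTBP1 list in HELLS and 41.6% in ANKRD17, where the whole list was 12.2% as long and the median gene had 9.67%.

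A broad cluster of the longest list can appear as several narrow ones in a shorter list, so the ratio of counts was set beside 2 other measures. The nucleotides covered in HELLS were 70.6% of those at 10000000 cells at 100000, 51.6% at 10000 and 12.9% at 1000, each less than by number of clusters. In ANKRD17 they were 78.6%, 40.0% and 5.92%, and in the whole list 71.1%, 20.2% and 2.05%. By place the shares were lower again at the first steps. Of the 10000000-cell clusters of HELLS, 57.2% (52.9 to 61.5) were overlapped by a cluster at 100000 cells and 47.5% (43.2 to 51.9) by one at 10000. Of those of ANKRD17, 57.6% (54.3 to 60.9) and 38.9% (35.6 to 42.2) were. For all 10000000-cell clusters these shares were 41.3% and 15.8%. At 1000 cells, 83 of the 526 HELLS clusters were overlapped, or 15.8% (12.8 to 19.2), against 1.83% of all clusters. In ANKRD17 78 of 885 were, or 8.81% (7.03 to 10.9). The 1000-cell list was used to choose the pair, so the values at 1000 cells are a description only.

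The clusters found again at 1000 cells were the broad ones. In HELLS those found again had a median width of 29 nt at 10000000 cells and the other 443 a median of 7 nt. In ANKRD17 the medians were 30.5 nt and 7 nt, and over the whole list 22 nt and 6 nt. A broader cluster has more room to be overlapped, and the width of a cluster may also follow read depth, neither of which was tested. Clusters found again in the RBFOX2 list were broader than the rest as well, with medians of 16 and 6 nt in HELLS and 19 and 7 nt in ANKRD17.

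Nearly all clusters of the pair at 1000 cells lay on clusters of the richer lists. Of the 146 HELLS clusters, 143 overlapped the 10000000-cell list by at least 1 nt, or 97.9% (94.1 to 99.6), and of the 118 ANKRD17 clusters 107 did, or 90.7% (83.9 to 95.3). For all clusters at 1000 cells the share was 71.5%. This list was used to choose the pair, so the contrast at 1000 cells is a description only. At 10000 cells the shares were 87.0% in HELLS, 81.4% in ANKRD17 and 75.3% in the whole list. At 100000 cells they were 83.5%, 72.4% and 55.8%. The genes thus stood above their list at each input. A densely covered span is easier to overlap, and the part of the covered 12.2% and 6.08% in these shares was not tested.

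A stricter count asked for overlap with all 3 higher inputs at once. In HELLS 133 of 146 clusters met it, or 91.1% (85.3 to 95.2), and in ANKRD17 93 of 118, or 78.8% (70.3 to 85.8). In the whole 1000-cell list, which was used to choose the pair, 52.5% did, and this contrast too is a description only. At 1000 cells 1 of the 146 HELLS clusters and 11 of the 118 ANKRD17 clusters were in no other list. In the whole 1000-cell list 7313 of 30911 clusters overlapped none of the 3 higher inputs. In all 8 other lists at once lay 19 HELLS clusters and 13 ANKRD17 clusters, a count not made for the whole list.

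RBFOX2 clusters of the pair mostly lay where PTBP1 clusters lay. In HELLS 299 of 344 RBFOX2 clusters overlapped the 10000000-cell PTBP1 list, or 86.9% (82.9 to 90.3), and in ANKRD17 320 of 368, or 87.0% (83.1 to 90.2). The whole RBFOX2 list gave 81.6%, so on this count the pair stood only a few points higher. With the 10000-cell PTBP1 list the shares were 75.9% in HELLS and 67.9% in ANKRD17 against 51.8%. With the 1000-cell list they were 31.1% (26.2 to 36.3) and 17.9% (14.2 to 22.2) against 10.5%. The choice of the pair used the RBFOX2 list and, in the last comparison, both lists, so these shares are a description only.

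In the reverse direction HELLS had the higher share. Of the 1000-cell PTBP1 clusters, 87.7% (81.2 to 92.5) in HELLS and 60.2% (50.7 to 69.1) in ANKRD17 overlapped an RBFOX2 cluster, and 43.4% did in the whole list. RBFOX2 clusters covered 4.75% of the HELLS span and 1.38% of the ANKRD17 span, and both lists compared here were used to choose the pair, so these shares are a description only. Of the 10000000-cell PTBP1 clusters, 35.4% (31.3 to 39.6) in HELLS and 22.7% (20.0 to 25.6) in ANKRD17 did so, against 7.92%. Counted in nucleotides covered at 1000 cells, 84.5% in HELLS and 58.0% in ANKRD17 were also covered by RBFOX2, and 97.4% and 90.4% by PTBP1 at 10000000 cells.

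To follow places and not clusters, the clusters of all 9 lists were joined into a locus wherever they overlapped on the strand of the gene. HELLS had 625 loci and ANKRD17 1175. Of these, 284 in HELLS (45.4%) and 597 in ANKRD17 (50.8%) were in 1 list alone, while 11 and 18 were in all 9. Close to 50% of the loci were thus in a single list, and a small set held a cluster of every list. A locus is a chain of overlapping clusters, so its lists need not share any nt. The loci from 94604569 to 94604623 in HELLS and from 73104419 to 73104483 in ANKRD17 were in all 9 lists with no common nt.

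**Figure D2:**
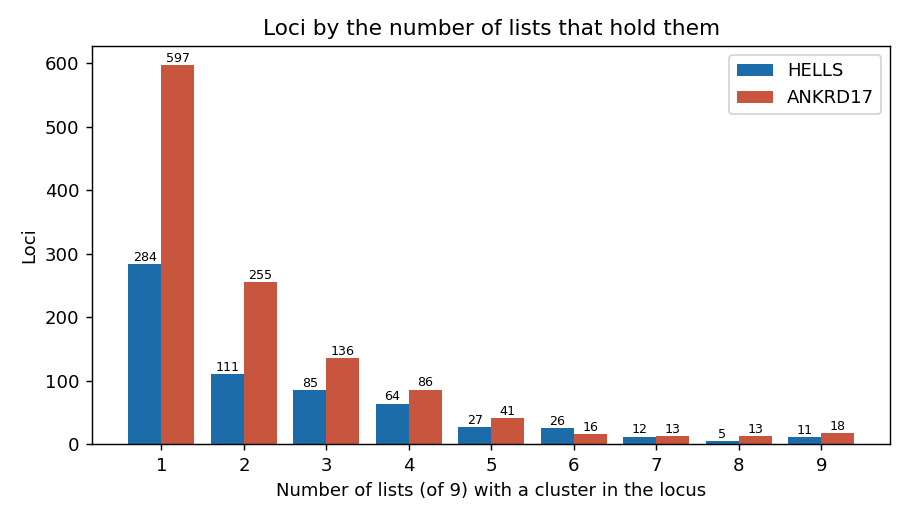
Number of loci in HELLS and ANKRD17 by the number of lists, of 9, with a cluster in the locus; bars start at 0 and carry their counts. Loci in 1 list numbered 284 and 597, and 11 and 18 loci were in all 9 lists.

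All 4 PTBP1 inputs held 77 loci in common in HELLS and 71 in ANKRD17, out of 82 and 88 loci with a cluster at 1000 cells. Of the 77 in HELLS, 72 also held an RBFOX2 cluster, or 93.5% (85.5 to 97.9). Of the 71 in ANKRD17, 60 did, or 84.5% (74.0 to 92.0). The 1000-cell and RBFOX2 lists were used to choose the pair, so both shares are a description only. The 5 loci of HELLS and 11 of ANKRD17 that were in the 4 inputs without RBFOX2 had no cluster in any SpyCatcher list. Of the loci with RBFOX2, 50 of 72 in HELLS and 42 of 60 in ANKRD17 had one. The loci in the 4 inputs were broad, with a median width of 43 nt in HELLS and 40 nt in ANKRD17, and the widest measured 407 and 168 nt. Those without RBFOX2 measured 10 to 24 nt in HELLS and 9 to 59 nt in ANKRD17. Whether their width or the short SpyCatcher lists account for the missing SpyCatcher clusters was not tested.

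RBFOX2 had few places of its own, as in its whole list, where 81.6% of clusters overlapped the 10000000-cell PTBP1 list. Loci were not counted over the whole list. Of 213 HELLS loci with an RBFOX2 cluster, 25 lacked PTBP1 at every input, and of 234 in ANKRD17 28 did. The RBFOX2 clusters in them had median widths of 5 and 4 nt, beside 6 nt for all RBFOX2 clusters in each gene, and none was wider than 7 nt. In HELLS 12 of the 25 and in ANKRD17 13 of the 28 lay within 20 nt of a PTBP1 cluster of the 10000000-cell list.

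Along HELLS the clusters gathered towards the 3′ end. When the span was cut into 10 equal parts counted from the 5′ end, parts 9 and 10 held 53.8%, 50.3%, 59.4% and 59.6% of the PTBP1 clusters with falling input, and they held 61.6% of the RBFOX2 clusters. Just before them, parts 7 and 8 held 9, 7, 3 and 1 PTBP1 clusters and 2 RBFOX2 clusters. The part of the gene richest in clusters thus borders on one of the poorest, and the order is the same for both proteins. A smaller peak lay in part 4, with 93, 67, 63 and 30 PTBP1 clusters and 48 RBFOX2 clusters. Part 1 held 4 and 2 clusters at the 2 higher inputs and none at 10000 and 1000 cells or for RBFOX2.

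Of 69 windows of 1000 nt along HELLS, 13 held a cluster in every one of the 9 lists and 17 held none in any. The longest stretch without a cluster, between midpoints, ran for 6450 nt from 2359 to 8809 nt after the 5′ end. At 1000 cells 27 windows were occupied, and 26 of them also held an RBFOX2 cluster. The window from 94602788 to 94603787 led at 1000 cells with 22 clusters, or 15.1% of the gene's clusters there, and held 18, 30 and 34 clusters at 10000000, 100000 and 10000 cells and 37 of RBFOX2. It was the only one of the 3 leading windows with more clusters at 1000 cells than at 10000000.

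The other leading windows of HELLS at 1000 cells ran from 94605788 to 94606787 with 37, 26, 27 and 12 PTBP1 clusters and 26 of RBFOX2, and from 94566788 to 94567787 with 16, 14, 14 and 11 and 14 of RBFOX2. The former lay near the 3′ end and had only 2, 1, 3 and 2 clusters in the SpyCatcher lists. The latter lay in part 4 of 10 and had 7 in each SpyCatcher list. The windows that lead for PTBP1 from few cells are therefore not in one order across libraries.

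**Figure D3:**
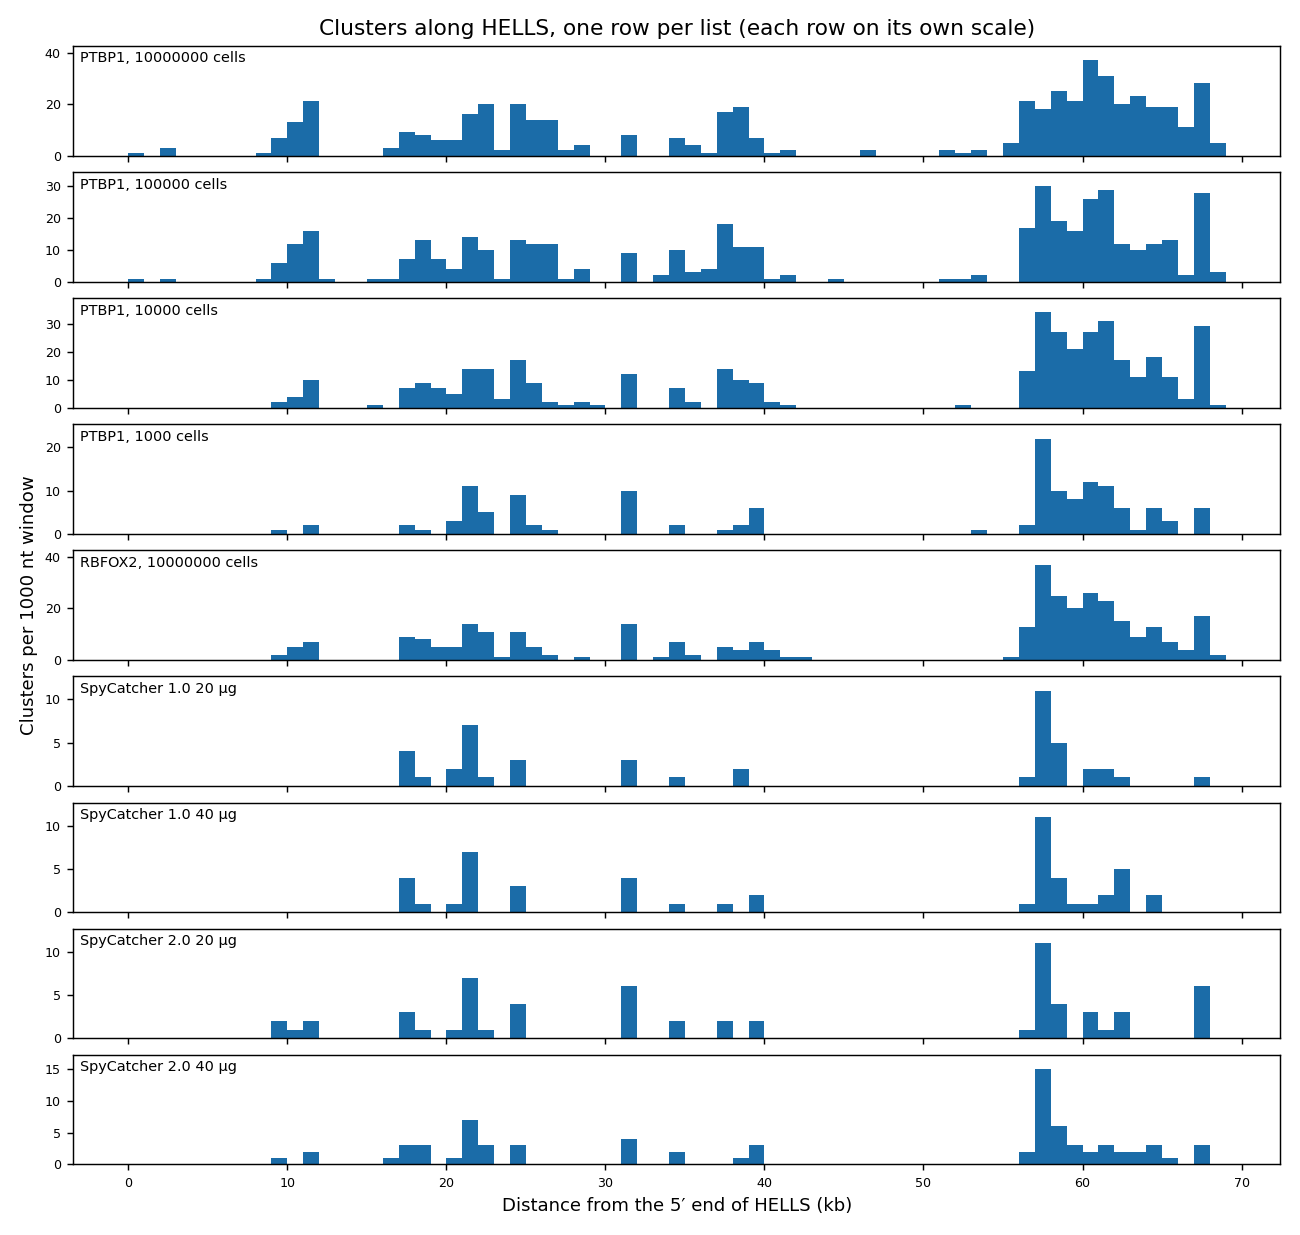
Clusters per 1000 nt window against the distance from the 5′ end of HELLS in kb, 1 row per list, each with its own vertical scale from 0. The window from 57 to 58 kb is the highest in 8 of the 9 rows, all but the top one, with 22 clusters at 1000 cells and 37 for RBFOX2, and few clusters lie between 41 and 55 kb.

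The HELLS locus with most nucleotides common to all 9 lists ran from 94603408 to 94603814, with its midpoint 57823 nt from the 5′ end. It measured 407 nt, of which 52 nt, between 94603422 and 94603679, were covered in every list. At 10000000 cells it was 1 single cluster, and it was split into 6 at 100000, 8 at 10000 and 11 at 1000 cells, 15 with RBFOX2 and 8, 6, 8 and 10 in the SpyCatcher lists. The same stretch thus counts once in the longest PTBP1 list and many times in the shorter ones. A near neighbour, from 94603828 to 94603877, had 12 nt common to all lists.

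The next locus of HELLS ran from 94566964 to 94567108 with 19 nt common to the 9 lists. It held 1, 1, 2 and 6 PTBP1 clusters with falling input, 2 of RBFOX2 and 5, 5, 4 and 6 in the SpyCatcher lists. Further loci in all 9 lists ran from 94567159 to 94567241 with 10 common nt and from 94608297 to 94608432 with 8. The 5 leading places of HELLS thus fall into 3 short stretches, at about 21, 58 and 63 kb from the 5′ end.

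Loci in the 4 inputs were close together. In HELLS the median gap between their midpoints was 180 nt, and 25 of 76 gaps were under 100 nt. The first lay 9851 nt from the 5′ end and the last 222 nt from the 3′ end. The largest gap, 16521 nt, ran from 39625 to 56146 nt after the 5′ end, which is the poor stretch described above.

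In ANKRD17 the clusters were spread over more places. Of 10 equal parts, part 9 was the richest in each list other than the one at 100000 cells, where part 1 held 153 clusters and part 9 held 141. Part 9 held 18.4%, 17.2%, 21.9% and 23.7% of the PTBP1 clusters with falling input, 28.0% of the RBFOX2 clusters and between 25.3% and 32.9% in the SpyCatcher lists. Most of these lay in the span of an overlapping noncoding RNA gene, described below. Part 1 came next for RBFOX2 with 70 clusters, and part 3 with 61. At 1000 cells part 3, with 21 clusters, stood above part 1, with 16.

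Of 186 windows of 1000 nt, 19 held a cluster in all 9 lists and 61 held none in any, or 32.8%. The longest such stretch without a cluster measured 5962 nt, from 101560 to 107522 nt after the 5′ end. At 1000 cells 48 windows were occupied and 42 of them also held RBFOX2. The window from 73107799 to 73108798 led at 1000 cells with 10 clusters, after 36, 30 and 31 at the higher inputs, and held 23 of RBFOX2 and 0, 5, 4 and 4 in the SpyCatcher lists. The others were 73111799 to 73112798 with 12, 16, 14 and 8 PTBP1 clusters and 15 of RBFOX2, and 73108799 to 73109798 with 24, 23, 22 and 6 and 24 of RBFOX2. All 3 lie within 5000 nt of each other, about 150 kb from the 5′ end.

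**Figure D4:**
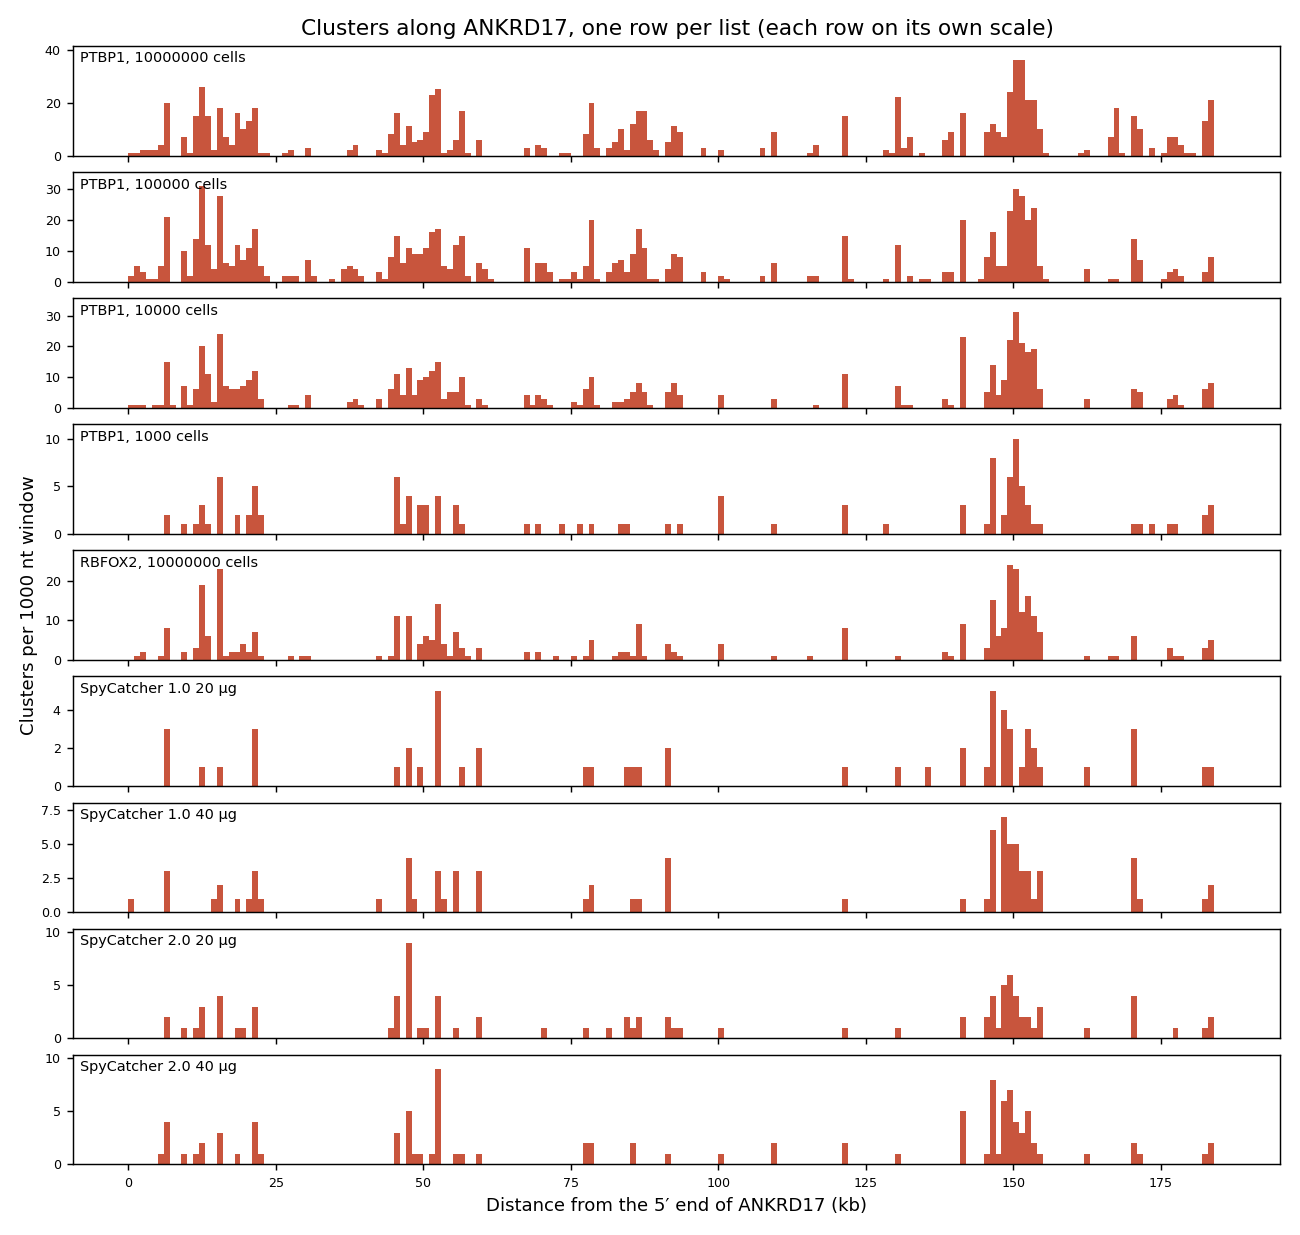
Clusters per 1000 nt window against the distance from the 5′ end of ANKRD17 in kb, 1 row per list, each with its own vertical scale from 0. The stretch around 150 kb is high in all 9 rows, with up to 36 clusters in a window at 10000000 cells and 10 at 1000.

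Fewer nt were common to all 9 lists in ANKRD17 than in HELLS. All 9 lists together covered 129 nt of HELLS and 34 nt of ANKRD17, out of 9751 and 14264 nt covered by any of them. The 4 PTBP1 inputs had 953 and 497 nt in common, of which RBFOX2 covered 854 and 373. The ANKRD17 locus with most nt common to all 9 lists ran from 73112038 to 73112136. It measured 99 nt, of which 9 nt, between 73112094 and 73112108, were covered in every list. A locus from 73075386 to 73075541, with 5 nt in all lists, had its midpoint 2089 nt from the 3′ end and held 1, 4, 5 and 3 PTBP1 clusters and 5 of RBFOX2.

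Of the other leading ANKRD17 loci, that from 73206653 to 73206762 had 4 nt in every list and those from 73109364 to 73109391 and from 73109784 to 73109835 had 3 each. The midpoint of the first lay 52090 nt from the 5′ end and the rest near 149 kb. Loci in the 4 inputs were farther apart than in HELLS, with a median gap of 434 nt and 17 of 70 gaps under 100 nt. The largest gap, 22391 nt, ran from 22971 to 45362 nt after the 5′ end.

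Most clusters of part 9, the rich part of ANKRD17, also lie in the span of another gene. The long noncoding RNA gene LOC124900713, whose strand is not in the tables used here, spans 73104345 to 73110740, or 3.45% of ANKRD17. It held 150, 134, 125 and 28 of the PTBP1 clusters of ANKRD17 with falling input and 100 of the RBFOX2 clusters. These are 16.9% at 10000000 cells, 23.7% at 1000 and 27.2% for RBFOX2, and clusters of the overlapping genes cannot be told apart. Without this span ANKRD17 held 735, 684, 460 and 90 PTBP1 clusters and 268 of RBFOX2, and its place among protein-coding genes went from 3 to 9 at 1000 cells and from 2 to 5 for RBFOX2. No other gene overlapped HELLS, and the pseudogene HMGA1P2 inside ANKRD17 held no cluster.

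The SpyCatcher lists were not used to choose the pair, but their names give PTBP1, a protein that the choice used. They ranked HELLS at place 4 and ANKRD17 at place 3 of the protein-coding genes in each of the 4 lists. These places are thus not independent of the choice. For SpyCatcher 1.0 at 20 and 40 µg, all 47 and all 51 HELLS clusters overlapped the 10000000-cell PTBP1 list, where 79.7% and 81.6% of the whole lists did. For SpyCatcher 2.0 the HELLS shares were 96.8% and 97.4%, against 82.1% and 81.7%. In ANKRD17 the 4 shares were 91.4%, 90.2%, 91.6% and 93.3%. The 10000000-cell list covered 12.2% of HELLS and 6.08% of ANKRD17, and the part of this cover in the shares was not tested.

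With RBFOX2 the SpyCatcher clusters of HELLS overlapped in 95.7% (85.5 to 99.5), 98.0%, 93.7% and 84.2% (74.0 to 91.6), in the order of versions and amounts used above. Those of ANKRD17 overlapped in 79.3%, 73.2%, 72.6% and 73.1%. The whole lists gave 52.8%, 53.7%, 50.5% and 49.0%. Both genes lay above their lists, and HELLS, where RBFOX2 covers more of the span, lay above ANKRD17 in each of the 4. The RBFOX2 list was used to choose the pair, so these shares are a description only. Of the loci in the 4 PTBP1 inputs, 50 in HELLS and 42 in ANKRD17 had a cluster in at least 1 SpyCatcher list. Those in all 4 SpyCatcher lists numbered 11 in HELLS, all of them in the 4 PTBP1 inputs, and 24 in ANKRD17, of which 18 were. Every one of these 11 and 24 loci held RBFOX2.

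Cas13 sites were few in number in both genes. Without guide, dRfxCas13d had 2 sites in HELLS among 2808, from 94546328 to 94546512 and from 94601614 to 94601801, and dPspCas13b had none among 4701. The first of these sites began close to the 5′ end and overlapped no PTBP1 or RBFOX2 cluster of the 10000000-cell lists, and the second overlapped 2 PTBP1 clusters and 1 RBFOX2 cluster. With EZH2g2, dPspCas13b had 2 sites in ANKRD17 among 625, or 32.0 per 10000, at place 16 among protein-coding genes. That from 73091891 to 73092029 overlapped 3 PTBP1 clusters and 1 RBFOX2 cluster, and that from 73155629 to 73155758 overlapped none. The lists of dPspCas13b with EZH2g1, of 59 sites, and of dRfxCas13d with EZH2g1 and EZH2g2, of 966 and 1994, held none in either gene. The remaining 2 of the 6 Cas13 sites entered the total only. With so few sites a difference between guides or proteins was not detectable in these genes.

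The clusters ended with the genes. No cluster lay on the opposite strand of either gene in any of the 9 lists, and none lay within 5000 nt beyond either end on the strand of the gene. An empty opposite strand was common, since 89.1% of the genes with at least 100 clusters at 10000000 cells had none there. How often the flanks of other genes were empty was not counted.

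The median gene of 2 lists of related genes had a ratio at 1000 cells close to that of the median gene overall. Of 20 chromatin remodellers and DNA methylation genes with a known strand, all held a PTBP1 cluster at 10000000 cells and 15 at 1000. Over all 11302 genes with a cluster at 10000000 cells, 47.6% had one at 1000. The median ratio of the number at 1000 cells to that at 10000000 was 1.61% in this list, beside 1.73% for the median of the 2610 genes with at least 100 clusters, and the highest was 11.9% for CHD1, from 159 to 19. The remodeller gene SRCAP went from 306 to 30, and SMARCAD1, an SNF2-family remodeller, from 161 to 6.

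Among 11 genes of ankyrin-repeat proteins, all held a cluster at 10000000 cells and 8 at 1000, with a median ratio of 1.25%. ANKHD1, the paralog of ANKRD17, went from 370 to 12 clusters, or 3.24%. ANKRD52, a regulatory subunit of a phosphatase, went from 133 to 14, and ANKRD11, a chromatin regulator, from 488 to 9.

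The genes with the nearest profile over the lists depended on how profiles were scaled. Likeness was the root mean square difference, over 9 lists, of log2 clusters per 10000 of the list. ENAH was nearest to HELLS at 0.37, then RBM26 at 0.39 and the noncoding RNA JPX at 0.43, where the median of 2609 genes was 4.1. SLIT2 was nearest to ANKRD17 at 0.33, then the noncoding RNA FTX at 0.48 and HELLS itself at 0.57, with a median of 4.45. The measure reads level as well as shape. With each profile centred on its own mean, 0 of the 3 nearest genes of HELLS and 0 of the 3 of ANKRD17 were the same, and PURPL, BUD23 and CBX5 and, for ANKRD17, BAZ2A, DCAF8 and EEF1E1-BLOC1S5 took their places.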

How the data were processed

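The deposited lists, 1 per group, give chromosome, start, end and strand on hg38, with no other value, and the authors' positions were used as deposited with starts counted from 1. STAR 2.7.9a, Trim Galore 0.0.6 and hg38 appear in the submitters' processing notes. The caller of sites, its thresholds, removal of duplicates and any pooling of libraries were not given in the sources used here. Lists of a further Cas13 guide entered total counts only and are not reported here.

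Gene spans, strands and start sequences came from RefSeq (GRCh38.p14). Of 59675 genes, 27302 had a strand, among them 15841 protein-coding genes, and ranks are among these. ATRX, BPTF, CHD7, ANKRD36, ANKRD50 and TNKS had none and were not counted. Overlap meant at least 1 nt in common and equal strands. Profiles used log2 of clusters plus 0.5 per 10000.

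The members and lists were chosen with earlier results of these data known. Named are the 5 loci of each gene in most lists (ties by common nt), the 3 windows with most clusters at 1000 cells, the 3 genes of nearest profile, overlapping genes, and of each gene list the 3 members with most clusters at 1000 cells. Genes next in number at the selection were also named. Alternatives changed the overlap rule, merging, minimum width, strand, windows, joining of loci and profile scaling. The tools were scipy 1.17.1, pandas 2.3.3, numpy 2.4.6 and Python 3.11.15, and the code, tested on simulated data, gave 0 wrong answers.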

Additional observations from a re-analysis of the deposited data

How the results depend on the processing

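Of 183 recomputed values, 153 moved by less than their counting interval or stayed within 1.5 times. With clusters merged within 10 nt, HELLS held 292 and 274 clusters at 10000000 and 100000 cells and ANKRD17 541 and 482. With overlap counted within 20 nt, shares against the 10000000-cell list rose in HELLS to 91.4% at 100000 cells, 91.9% at 10000 and 93.3% for RBFOX2, and in ANKRD17 to 84.4%, 88.5% and 93.2%, with 96.8% and 98.1% for SpyCatcher 2.0. RBFOX2 clusters then overlapped the 100000-, 10000- and 1000-cell lists in 90.1%, 91.0% and 55.5% in HELLS and 94.0%, 88.6% and 40.8% in ANKRD17. Overlap by at least 50% of the shorter cluster gave 79.6% for HELLS at 100000 cells. Joining sites within 20 nt left 45 HELLS loci in the 4 inputs, and 45 with RBFOX2. With the 1000-cell list not required, 131 and 162 loci were common to the 3 other inputs and RBFOX2. In 2000-nt windows the richest 10% of windows held 49.3% and 48.8% of HELLS clusters at 1000 cells and for RBFOX2, and 44.3% of those of RBFOX2 in ANKRD17. Clusters of at least 5 nt numbered 37 and 68 in ANKRD17 in the lists of SpyCatcher 1.0 at 20 µg and 2.0 at 40 µg. With centred profiles, 0 and 0 of the 3 nearest genes were shared. Leaving out the span of LOC124900713 and joining loci from the lists concerned alone were chosen after seeing the data. The cause of these changes was not tested. No paired analysis was possible because there is 1 list per group. Without read counts, depth cannot be given, and a short list may be a shallow one.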
